A study of Mus musculus with 11 samples.

Results

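A set of 8 pigment cell genes, *Dct*, *Tyr*, *Tyrp1*, *Pmel*, *Mlana*, *Slc45a2*, *Mitf* and *Kit*, was followed in the cochlear transcriptome of *Atf6*-/- mice. They were taken by gene symbol, 8 of 18667 genes listed in the FPKM tables, and all 8 passed the filter for low values. Mice were 2 months old, and 1 RNA-Seq library was made from each whole cochlea, 5 of them *Atf6*+/+ (WT1 to WT5) and 6 *Atf6*-/- (KO1 to KO6). In the *Atf6*-/- mice exon 4 of *Atf6* holds an early stop codon, in every cell from conception, and both genotypes were kept on the C57BL/6J background, so all of them share its *Cdh23* ahl allele, which is linked to age-related hearing loss. ATF6 is a transcription factor held in the endoplasmic reticulum membrane until misfolded proteins accumulate, and the study asked how its loss alters the cochlea. The unit is FPKM, fragments scaled by transcript length and by library size, so levels can be compared between genes per length. No read counts were used, so the depth behind a value is not known.

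In the cochlea, pigment cells sit mainly in the stria vascularis, the epithelium of the lateral wall that secretes potassium into the endolymph and generates the endocochlear potential. There they are called intermediate cells. They lie between the marginal cells, which face the endolymph and secrete potassium, and the basal cells, which seal the tissue from the spiral ligament. Intermediate cells descend from the neural crest, make melanin, and carry the potassium channel KCNJ10 on which the endocochlear potential depends. Mice without them are deaf. In melanocytes, tyrosinase (*Tyr*) performs the first and limiting step of melanin synthesis, dopachrome tautomerase (*Dct*) and tyrosinase-related protein 1 (*Tyrp1*) act further along, PMEL forms the fibrils on which melanin is laid down, MLANA assists the maturation of PMEL, SLC45A2 is a transporter that keeps the melanosome at a pH that tyrosinase tolerates, MITF is the transcription factor of the lineage, and KIT is the receptor through which KIT ligand sustains the cells.

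MITF binds short E-box sequences in the promoters of pigment genes, of which TCATGTG (the M-box) is the best known. The promoters of the 3 melanin enzymes are shown because they hold this motif, while the expression of the 3 genes differed among the libraries as described further on. Each window runs from 250 bases before to 50 bases after the start site in RefSeq (build GRCm38.p6, not the build of the study's alignment), 5′ to 3′ on the strand of the gene, with TCATGTG or its reverse complement in capitals. The *Tyr* window is chr7:87493463-87493762 on the minus strand, that of *Tyrp1* is chr4:80833963-80834262 on the plus strand, and that of *Dct* is chr14:118052197-118052496 on the minus strand.
Tyr: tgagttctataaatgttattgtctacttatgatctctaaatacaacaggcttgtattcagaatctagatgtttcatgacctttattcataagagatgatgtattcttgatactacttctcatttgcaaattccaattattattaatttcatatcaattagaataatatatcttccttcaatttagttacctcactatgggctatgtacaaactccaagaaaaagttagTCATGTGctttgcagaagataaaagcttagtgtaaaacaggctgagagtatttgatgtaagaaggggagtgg
Tyrp1: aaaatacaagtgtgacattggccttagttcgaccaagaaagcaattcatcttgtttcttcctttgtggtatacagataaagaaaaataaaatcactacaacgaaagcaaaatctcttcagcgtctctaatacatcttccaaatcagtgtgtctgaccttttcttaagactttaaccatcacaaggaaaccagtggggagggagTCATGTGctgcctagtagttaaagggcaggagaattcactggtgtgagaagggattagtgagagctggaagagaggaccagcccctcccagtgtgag
Dct: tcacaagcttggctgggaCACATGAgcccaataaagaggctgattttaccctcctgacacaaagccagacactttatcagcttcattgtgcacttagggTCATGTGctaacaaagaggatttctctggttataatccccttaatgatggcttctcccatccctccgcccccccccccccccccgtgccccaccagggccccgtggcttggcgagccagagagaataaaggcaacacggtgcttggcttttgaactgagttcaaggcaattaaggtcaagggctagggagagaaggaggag
The motif began 22 bases before the start site in *Tyr*, 47 bases before it in *Tyrp1*, and 151 bases before it in *Dct*, which had another match on the reverse strand 232 bases before the start. Windows were given for 5 of the 8 genes. TCATGTG was present in 3 of these 5 and in 3.77% of the 32851 promoters of the same length, counting either strand. The shorter CATGTG, which TCATGTG contains, was in the same 3 and in 14.2% of all promoters, and the related E-box CACGTG was in none of the 5 and in 7.15% of all promoters. None of the 3 *Mitf* windows or the 2 *Kit* windows held any of the 3 motifs. *Pmel*, *Mlana* and *Slc45a2* had no window in the table. A match of letters is a description of the sequence only.

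The genotype labels were checked by *Atf6* itself, which measured 9.52 ± 1.11 FPKM (SD, n = 5) in *Atf6*+/+ and 4.27 ± 0.285 FPKM (n = 6) in *Atf6*-/- cochleae, with ranges of 8.25 to 10.6 and 3.83 to 4.59 that did not overlap. Cochlear identity was plain from *Coch* and *Otos*, 2 genes of spiral ligament fibrocytes, at 2024 to 3731 and 984 to 2023 FPKM. One library stood apart in the genes of strial marginal cells. In WT4, the marginal cell potassium channel subunit *Kcne1* was at 0.10 FPKM, against 14.1 to 21.5 FPKM in the other *Atf6*+/+ libraries, and the chloride channel subunit *Bsnd* was listed at 0. The mean log2(FPKM + 0.1) of 9 marginal cell genes, called the marginal cell score here, was 1.67 in WT4, then 2.60 in KO2 and 3.14 in KO4, and between 3.23 and 4.08 in the remaining libraries. The genotype comparison of the 8 genes is therefore given with and without WT4.

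The melanin enzymes were led by *Dct* (NCBI gene 13190, chromosome 14), the most abundant of the 8 genes in 8 of 11 libraries. It measured 56.8, 60.5, 69.7, 0.84 and 76.4 FPKM in WT1 to WT5. In *Atf6*-/- cochleae it ran from 8.35 FPKM in KO4 through a median of 40.6 to 80.2 FPKM in KO6. WT4 was thus the single library almost without *Dct*, the other 4 *Atf6*+/+ libraries lay within 1.34-fold of each other, and the *Atf6*-/- libraries spread over 9.61-fold, with KO3, KO5 and KO6 near or above the *Atf6*+/+ values and KO1, KO2 and KO4 below them. In WT4, KO2 and KO4 *Kit* was the most abundant instead. The groups overlapped with or without WT4.

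*Tyr* (NCBI gene 22173, chromosome 7) was present at a far lower level. It measured 2.17, 2.54, 1.88, 0.10 and 3.64 FPKM in WT1 to WT5, and 0.35 to 4.32 FPKM with a median of 1.22 in *Atf6*-/- cochleae. Its lowest libraries were those lowest for *Dct*, WT4, KO4 (0.35 FPKM) and KO2 (0.37 FPKM), and its highest was KO5. *Dct* exceeded *Tyr* by 17.7- to 37.1-fold in the 10 libraries other than WT4, and by 8.40-fold in WT4, where *Tyr* was at the pseudocount of 0.1 FPKM.

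*Tyrp1* (NCBI gene 22178, chromosome 4) was below 1 FPKM in every library. It measured 0.90, 0.83, 0.30, 0.68 and 0.27 FPKM in WT1 to WT5, and 0.14 to 0.83 FPKM with a median of 0.335 in *Atf6*-/- cochleae. It did not follow the other enzymes. WT4 kept the median *Atf6*+/+ level of *Tyrp1*, KO4 had the highest *Atf6*-/- level, and KO6, the library highest for *Dct*, had the lowest *Tyrp1* of all. The ratio of *Dct* to *Tyrp1* accordingly ranged from 1.24 in WT4 and 10.1 in KO4 to 573 in KO6.

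**Figure D1:**
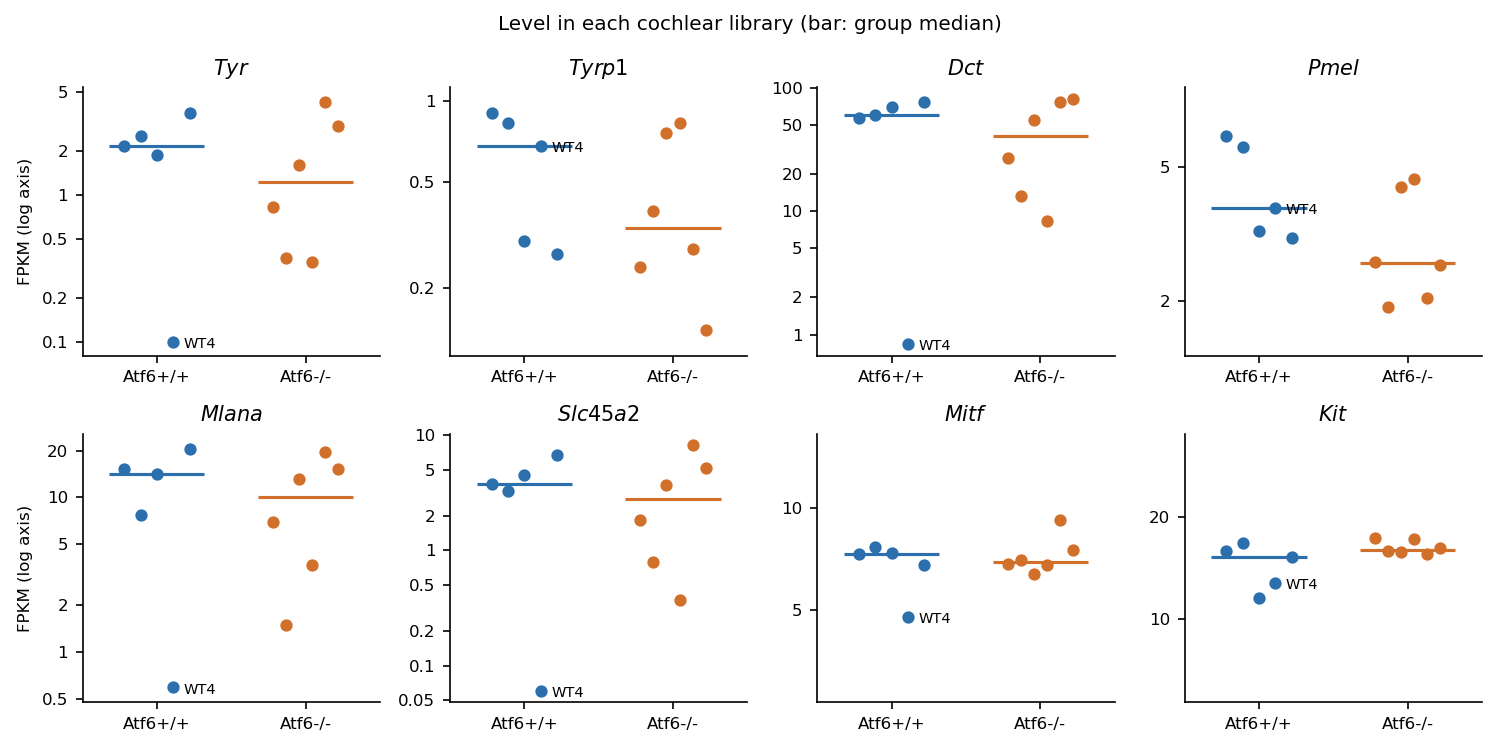
Each panel plots the FPKM of 1 gene on a log axis in the 5 Atf6+/+ and 6 Atf6-/- cochlear libraries, 1 point per library, with a bar at the group median. WT4 lies far below the other libraries for Tyr (0.10), Dct (0.84), Mlana (0.59) and Slc45a2 (0.06), but not for Tyrp1, Pmel or Kit, and the 2 groups overlap in all 8 panels.

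Among the melanosome proteins, *Mlana* (NCBI gene 77836, chromosome 19) measured 15.2, 7.63, 14.1, 0.59 and 20.5 FPKM in WT1 to WT5. In *Atf6*-/- cochleae it ran from 1.5 FPKM in KO2 through a median of 10.04 to 19.7 FPKM in KO5. WT4, KO2 and KO4 (3.67 FPKM) were again the lowest libraries.

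*Slc45a2* (NCBI gene 22293, chromosome 15) measured 3.79, 3.29, 4.52, 0.06 and 6.67 FPKM in WT1 to WT5, and 0.37 to 8.19 FPKM with a median of 2.78 in *Atf6*-/- cochleae. Its value in WT4 lay below the background of 0.1 FPKM. *Dct* was 9.34- to 22.6-fold above *Slc45a2* in the 10 libraries other than WT4.

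*Pmel* (NCBI gene 20431, chromosome 10) measured 6.18, 5.74, 3.23, 3.79 and 3.09 FPKM in WT1 to WT5, and 1.92 to 4.6 FPKM with a median of 2.60 in *Atf6*-/- cochleae. WT4 lay at the *Atf6*+/+ median, and KO4 held the highest *Atf6*-/- value, as for *Tyrp1*. *Pmel* was 3.22-fold higher in its highest than in its lowest library. In the GENCODE M21 annotation *Pmel* overlaps *Cdk2*, a cell cycle kinase, and *Dgka*, a lipid kinase, both on the other strand. *Dgka* was more abundant than *Pmel* (19.75 to 24.28 FPKM) and ranked the libraries in part as *Pmel* did (Spearman rho = 0.72 over 11 libraries), while *Cdk2* (3.84 to 6.31 FPKM) did so less (rho = 0.27). The libraries were stranded, but whether RSEM was run with strand is not given in the sources used here, and a share of *Pmel* reads from these neighbours was not tested. *Dct* also has an antisense transcript in that annotation, *4930435M08Rik*, which is not analysed here.

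The 2 regulators were far steadier. *Mitf* (NCBI gene 17342, chromosome 6) measured 7.35, 7.70, 7.38, 4.78 and 6.78 FPKM in WT1 to WT5, and 6.39 to 9.25 FPKM with a median of 6.93 in *Atf6*-/- cochleae. WT4 was the lowest and KO5 the highest library, but the span was 1.94-fold. *Kit* (NCBI gene 16590, chromosome 5) measured 15.9, 16.8, 11.5, 12.8 and 15.2 FPKM in WT1 to WT5. In the 6 *Atf6*-/- cochleae it stayed within 15.6 to 17.3 FPKM, a spread of 4.72% of the mean (SD), against 15.3% in *Atf6*+/+. WT3, WT4 and WT5 lay below that range. In order of mean FPKM over the 11 libraries the genes ranked *Dct* (47.6), *Kit* (15.5), *Mlana* (10.8), *Mitf* (7.07), *Pmel* (3.65), *Slc45a2* (3.49), *Tyr* (1.89) and *Tyrp1* (0.511). Neighbours in this order overlapped in their ranges across libraries at every step. All 8 together summed to 23.6 FPKM in WT4, to 41.2 and 42.2 FPKM in KO2 and KO4, and to 63.4 to 136 FPKM elsewhere.

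None of the 8 genes differed between *Atf6*-/- and *Atf6*+/+ cochleae beyond the spread of the libraries. In a limma fit of log2(FPKM + 0.1) over all 11 libraries and 16169 genes, 0 of 8 passed the study's rule (an unadjusted p of 0.05 or less and a log2 fold change beyond 0.05 in either direction), which 9.85% of all genes passed (4.48% higher and 5.37% lower in *Atf6*-/- cochleae). None passed an adjusted p under 0.05, which 0.068% of all genes passed. Without WT4 the counts were again 0 of 8, beside 8.45% (3.67% higher and 4.77% lower) and 0.0682% of 16139 genes. In bulk tissue such as this, fewer cells of a type and less RNA per cell cannot be told apart.

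Removal of WT4 moved the estimates of 4 genes by much more than it moved the others. The log2 fold change of *Dct* was 0.18 (95% interval -2.18 to 2.54, limma adjusted p = 0.968) with all libraries, and -1.05 (-2.36 to 0.26, limma adjusted p = 0.649) without WT4, which is 0.484-fold on the scale of FPKM + 0.1 (the ratio of mean FPKM was 0.657). *Tyr* went from -0.27 (-1.99 to 1.46, limma adjusted p = 0.929) to -1.0 (-2.37 to 0.36, limma adjusted p = 0.676). *Mlana* went from -0.013 (-1.92 to 1.89) to -0.87 (-2.28 to 0.53). *Slc45a2* went from -0.027 (-2.15 to 2.09) to -0.99 (-2.54 to 0.56). With a pseudocount of 1 FPKM the values without WT4 were -0.55 for *Tyr* and -0.63 for *Slc45a2*. These intervals are wide. Without WT4 each still holds no difference, and their lower bounds lie at 0.172- to 0.206-fold on that scale. Exact two-sided permutation tests over the 210 divisions into groups of 4 and 6 gave p = 0.224 for *Dct*, 0.210 for *Tyr*, 0.276 for *Mlana* and 0.290 for *Slc45a2*, where the smallest p possible is 0.00476.

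*Pmel* and *Kit* had the lowest p of the 8 genes in the fit of 11 libraries. For *Pmel* the log2 difference was -0.55 ± 0.262 (SE, limma adjusted p = 0.505) with all libraries and -0.59 ± 0.291 (limma adjusted p = 0.611) without WT4, with an exact permutation p of 0.104 and 0.129. For *Kit* it was 0.19 ± 0.0898 (limma adjusted p = 0.505) with all libraries and 0.15 ± 0.0931 (limma adjusted p = 0.680) without WT4, with an exact permutation p of 0.0736 and 0.133. Its mean was 14.4 ± 2.21 FPKM (SD, n = 5) in *Atf6*+/+ and 16.3 ± 0.770 FPKM (n = 6) in *Atf6*-/- cochleae. For *Mitf* it was 0.11 (-0.17 to 0.39, limma adjusted p = 0.781) with all libraries and -0.0092 (-0.22 to 0.20, limma adjusted p = 0.985) without WT4, an interval of 0.859- to 1.15-fold on the scale of FPKM + 0.1. For *Tyrp1* it was -0.42 (-1.29 to 0.45, limma adjusted p = 0.731) and -0.35 (-1.32 to 0.63, limma adjusted p = 0.851).

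**Figure D2:**
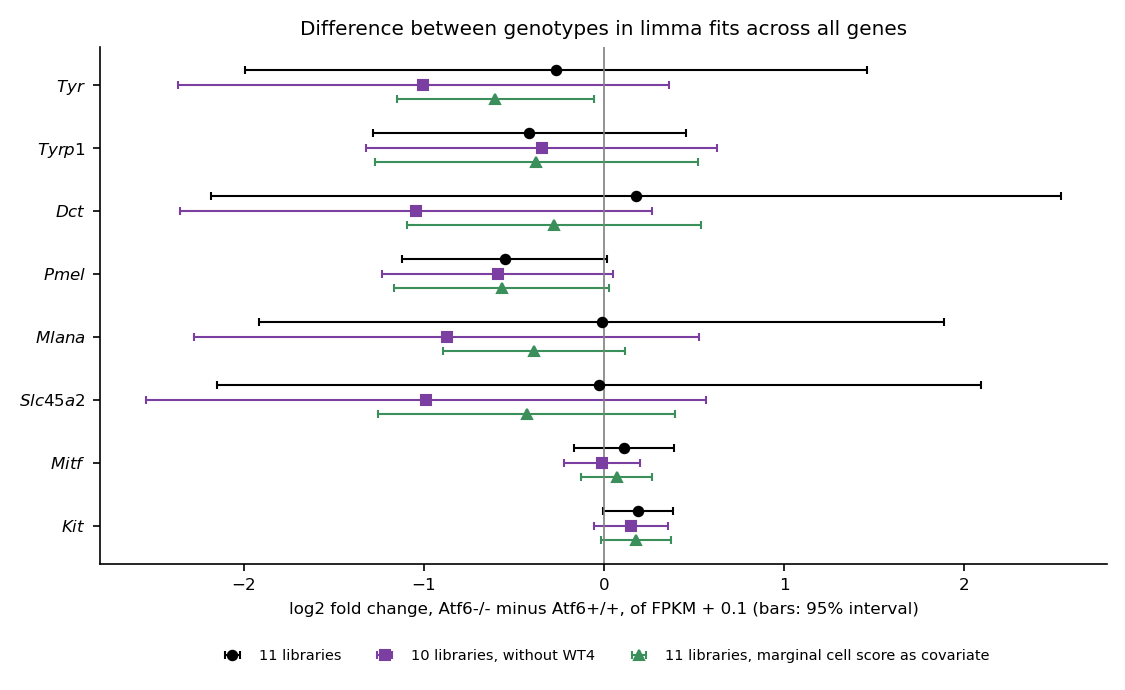
Points give the log2 fold change of each gene, Atf6-/- minus Atf6+/+, on the scale of FPKM + 0.1, with 95% intervals, in 3 limma fits: all 11 libraries, the 10 without WT4, and all 11 with the marginal cell score as a covariate. For Dct the estimate is 0.18 with all libraries and -1.05 without WT4, for Mitf and Kit the intervals are narrow, and the interval for Tyr with the covariate is the only one shown that lies wholly below 0 (-0.60, limma adjusted p = 0.446).

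*Dct*, *Tyr*, *Mlana* and *Slc45a2* rose and fell together from library to library, a grouping made after their values were seen. Between any 2 of these 4 genes Spearman's rho over the 11 libraries lay between 0.91 and 0.97, and between 0.88 and 0.96 without WT4. Within the 6 *Atf6*-/- libraries alone it lay between 0.89 and 1. These correlations are given as descriptions over libraries that share scaling and dissection, with no p. *Tyrp1* and *Pmel* were alike each other (rho = 0.81, or 0.49 within the *Atf6*-/- libraries, and Pearson r = 0.81, or 0.74) and did not follow *Dct*, with a rho of -0.49 and -0.27 and a Pearson r of -0.36 and -0.047. *Tyrp1* was at 0.68 FPKM or more in WT1, WT2, WT4, KO3 and KO4 and at 0.39 FPKM or less in the other 6 libraries, and the same 5 libraries held the 5 highest *Pmel* values. *Kit* had a rho of -0.17 with *Dct*. *Mitf* ranked the libraries in part as *Dct* did (rho = 0.66), yet its Pearson r with *Dct* went from 0.80 to 0.40 without WT4. The name of pigment cell genes thus covers 4 genes with a common pattern, *Mitf*, which shared it in part, and *Tyrp1*, *Pmel* and *Kit*, which did not.

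**Figure D3:**
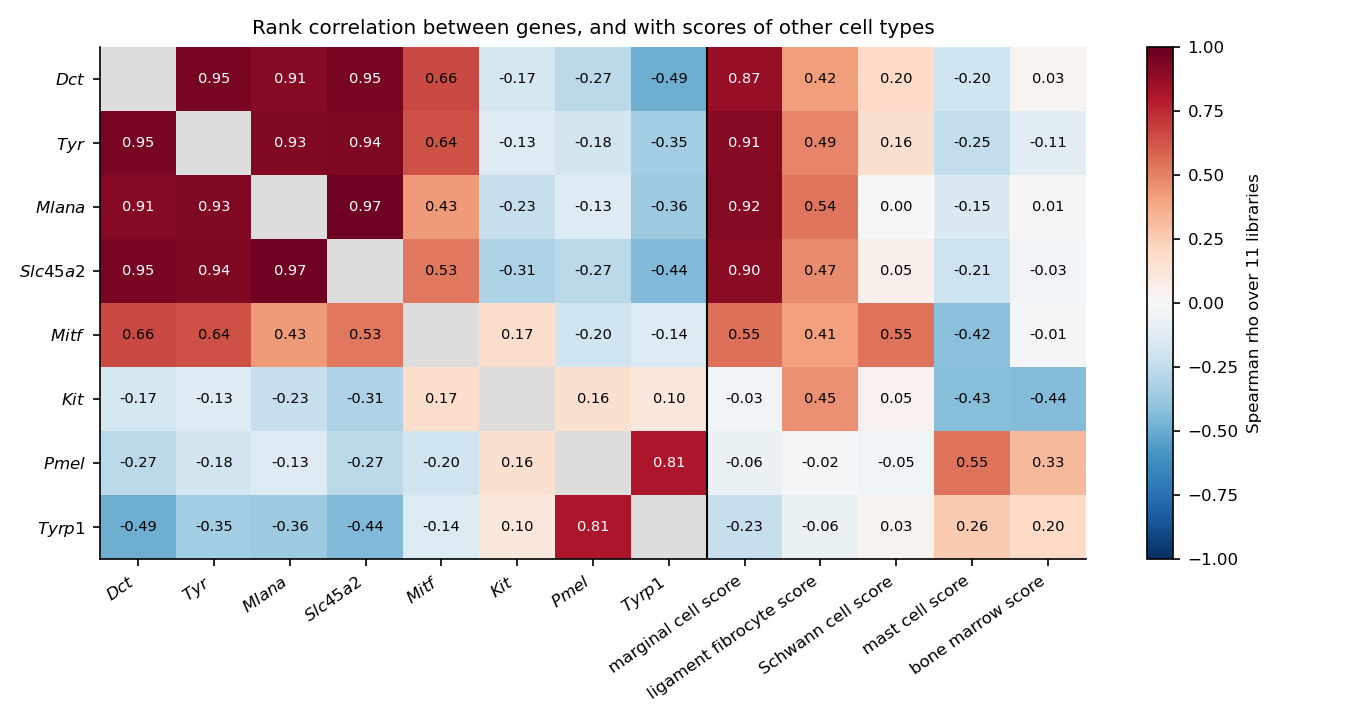
Cells give Spearman's rho over 11 libraries between each pair of the 8 genes (left of the line) and between each gene and the mean log2 level of marker lists of other cell types (right of the line), from blue at -1 to red at 1. Dct, Tyr, Mlana and Slc45a2 form a block at 0.91 or above that also follows the marginal cell score, and Pmel and Tyrp1 are related to each other (0.81) and have a rho of -0.49 to -0.13 with the genes of that block.

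The 4 genes followed the marginal cells of the stria, a different lineage that does not make melanin. Spearman's rho with the marginal cell score was 0.87 for *Dct*, 0.91 for *Tyr*, 0.92 for *Mlana* and 0.90 for *Slc45a2* over 11 libraries, and 0.83 to 0.89 without WT4. For *Dct* the Pearson r was 0.94, and 0.92 without the 2 libraries farthest from the median. The same 4 genes had a rho of 0.42 to 0.54 with the ligament fibrocyte score, 0.23 to 0.34 with the basal cell score and 0.00 to 0.20 with the Schwann cell score. With the osteoclast score it was -0.47 to -0.25 over all libraries and -0.94 to -0.89 within the 6 *Atf6*-/- libraries, where that with the marginal cell score was 0.89 to 1. Of the single marginal cell genes, *Esrrb* (rho = 0.95 with *Dct*), *Kcne1* (0.94), *Slc12a2* (0.92) and *Kcnq1* (0.91) were nearest to *Dct*. They encode a nuclear receptor, a potassium channel subunit, a sodium, potassium and chloride cotransporter and the channel that KCNE1 regulates. The ratio of *Dct* to *Kcne1* was 2.90 to 4.29 in the *Atf6*+/+ libraries other than WT4, 8.40 in WT4, 1.48 in KO4, and 3.36 to 3.94 in the other *Atf6*-/- libraries. The rho with the marginal cell score was -0.23 for *Tyrp1*, -0.064 for *Pmel*, -0.027 for *Kit* and 0.55 for *Mitf*.

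**Figure D4:**
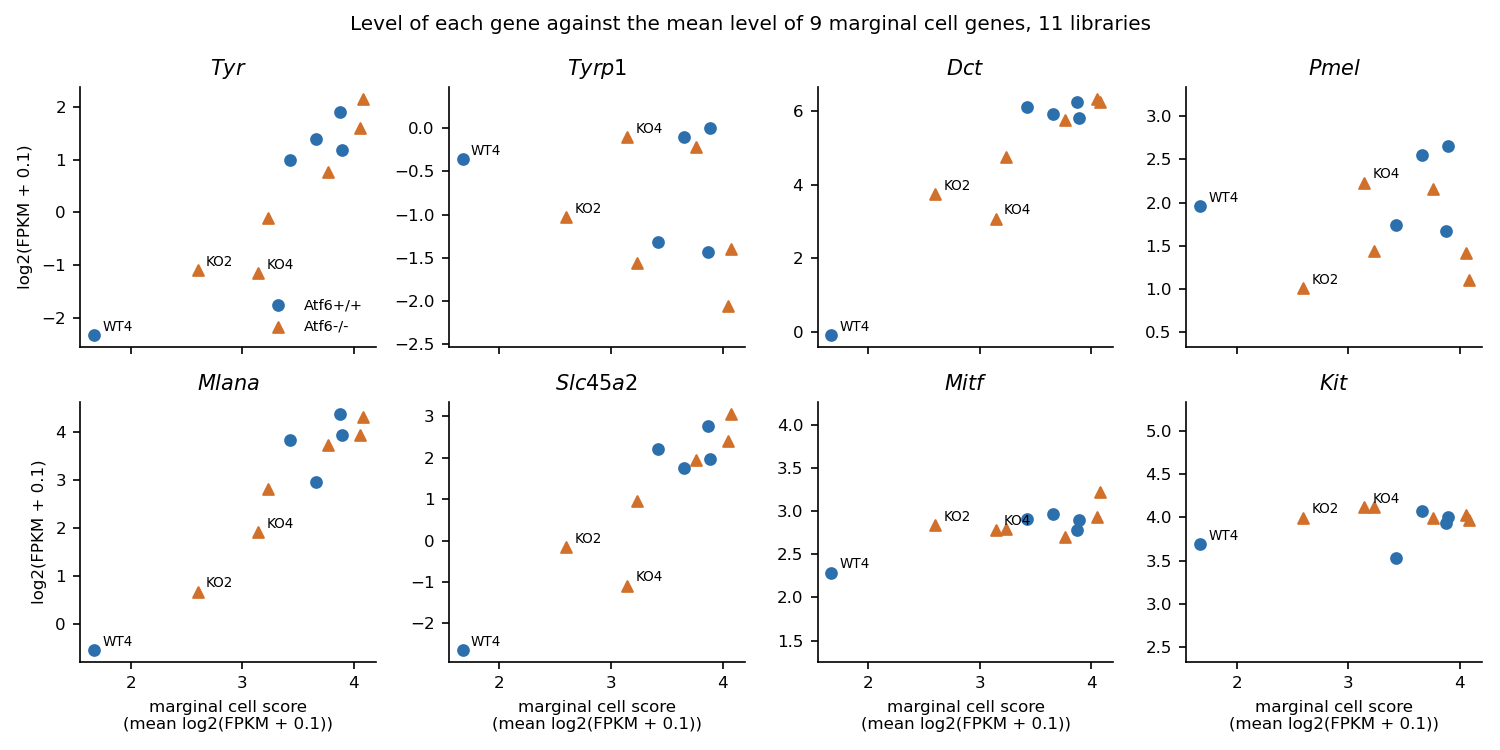
Each panel plots log2(FPKM + 0.1) of 1 gene against the marginal cell score, the mean log2(FPKM + 0.1) of 9 marginal cell genes, with 1 point for each of 5 Atf6+/+ (circles) and 6 Atf6-/- (triangles) libraries. Dct, Tyr, Mlana and Slc45a2 rise along the score, with WT4 (1.67), KO2 (2.60) and KO4 (3.14) at its low end, while Tyrp1, Pmel and Kit show no such slope.

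With the marginal cell score as a covariate, the differences of these 4 genes between genotypes were all negative in both sets of libraries, while without it that of *Dct* was 0.18 with all libraries. With all libraries they were -0.60 for *Tyr* (-1.15 to -0.054, limma adjusted p = 0.446), -0.28 for *Dct* (-1.10 to 0.54), -0.39 for *Mlana* (-0.89 to 0.11) and -0.43 for *Slc45a2* (-1.25 to 0.39). Without WT4 they were -0.51, -0.60, -0.36 and -0.48, and none passed at the unadjusted p. Without WT4, KO2 and KO4, the 3 libraries lowest in the score, the difference was -0.26 for *Dct*, -0.26 for *Tyr*, -0.073 for *Mlana* and -0.088 for *Slc45a2*, a subset chosen after the values were seen. None of these estimates passed an adjusted p under 0.05. No marginal cell gene passed the adjusted p. Of 9, 1 rose at the unadjusted p with all libraries (*Heyl*, log2 fold change 0.38, or 0.28 without WT4, a transcription factor of the Notch pathway) and 0 without WT4, and their median log2 fold change was 0.14 and -0.19. At the unadjusted p, 1 of 4 basal cell genes (*Sox8*), 1 of 6 ligament fibrocyte genes (*Coch*) and 0 of 7 Schwann cell genes rose with all libraries, and none of these without WT4. Over all genes, 4.48% rose at the study's rule with all libraries and 3.67% without WT4. All 4 basal cell genes and all 6 ligament fibrocyte genes had positive log2 fold changes in both fits, with medians of 0.15 and 0.26 with all libraries and 0.14 and 0.16 without WT4.

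Among 17 other genes of melanosome formation and transport, 1 rose and 1 fell at the unadjusted p with all libraries and likewise without WT4, and 0 passed the adjusted p. Their median log2 fold change was -0.016 with all libraries and -0.13 without WT4, beside -0.013 and -0.016 over all genes. *Rab27a*, the GTPase that ties melanosomes to the cell's motors, fell by 0.37 on the log2 scale with all libraries (limma adjusted p = 0.489) and by 0.40 without WT4. The gene that rose was *Ap3b1* with all libraries (0.097, or 0.078 without WT4) and *Hps6* without WT4 (0.17, or 0.13 with all libraries), both of which encode parts of the machinery that sorts cargo to melanosomes. *Gpnmb*, a melanosome glycoprotein related to PMEL, was listed at 2.30 FPKM in WT4, 8.45 in KO2 and 9.01 in KO4 and at 27.3 to 46.4 FPKM elsewhere, and ranked the libraries as *Dct* did (rho = 0.94). The melanosome receptor *Gpr143* did the same (rho = 0.91) at 0.04 to 0.82 FPKM. *Oca2*, a melanosome anion channel, was at 0.07 to 0.34 FPKM and had a rho of -0.23 with *Dct*. The transport genes *Myo5a*, *Lyst* and the *Hps* genes, which many cells use, varied little.

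No tested signal or transcription factor of the melanocyte lineage was called different between the genotypes, which does not show that their levels were equal. Of 13 listed, 11 were tested and 0 passed the unadjusted p in either fit, with a median log2 fold change of 0.12 with all libraries and 0.049 without WT4. *Kitl*, the ligand of KIT, was at 5.43 to 7.54 FPKM in *Atf6*+/+ and 5.13 to 6.38 FPKM in *Atf6*-/- cochleae (log2 fold change -0.18 with all libraries and -0.20 without WT4, limma adjusted p = 0.513 and 0.610). *Sox10*, a neural crest factor that Schwann cells and other cochlear cells express too, was at 107 to 158 FPKM. *Ednrb*, the endothelin receptor of the lineage, was at 10.5 to 17.4 FPKM. *Trpm1*, a channel encoded by a known target gene of MITF, was at 0.01 FPKM in WT4 and 0.43 to 2.55 FPKM elsewhere. *Mc1r*, the melanocortin receptor of skin melanocytes, was at 0.04 FPKM or less in every library and was not tested. The paralogues of *Mitf* were steady as well, *Tfe3* at 20.5 to 24.7 FPKM and *Tfeb* at 17.6 to 25.9 FPKM, both above *Mitf* in every library, while *Tfec* stayed at 0.05 to 0.90 FPKM. None of these 3 passed the unadjusted p.

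Of 6 further genes reported in strial intermediate cells, 1 rose at the unadjusted p, in both fits. *Kcnj10* was at 53.0, 48.1, 40.0, 32.0 and 51.8 FPKM in WT1 to WT5 and at 51.5 to 64.0 FPKM in *Atf6*-/- cochleae. The difference was 0.37 on the log2 scale with all libraries (limma adjusted p = 0.403) and 0.25 without WT4 (limma adjusted p = 0.534). The study named *Kcnj10* among the potassium channel genes that were altered, by a P value from DESeq2, which is another test and threshold. Glia and supporting cells of the cochlea express *Kcnj10* too, and it did not share the pattern of *Dct* (rho = 0.36). WT4 held 32.0 FPKM of *Kcnj10* beside 0.84 FPKM of *Dct*. *Met*, the receptor of hepatocyte growth factor, was at 1.12 FPKM in WT4, 2.02 in KO2 and 2.13 in KO4 and at 3.17 to 6.38 FPKM elsewhere (rho = 0.92 with *Dct*). The glutathione transferase *Gsta4*, at 52.3 to 147 FPKM, had a rho of 0.64 with *Dct*. *Cd44*, *Nrp2* and the potassium channel gene *Kcnj13* did not follow *Dct* closely (rho = 0.27, 0.44 and -0.064).

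*Kit* and *Mitf* are expressed outside pigment cells, and markers of such cells were measured beside them. *Kit* marks mast cells and blood progenitors. All 5 mast cell genes tested of 7 had a negative log2 fold change and 3 of them fell at the unadjusted p (2 without WT4), while *Kit* had a positive one. The mast cell protease *Tpsb2* was at 0.53 to 0.78 FPKM in *Atf6*+/+ and 0.10 to 0.39 FPKM in *Atf6*-/- cochleae, and the defining receptor subunit *Ms4a2* was at 0.13 FPKM or less throughout. *Kit* had a rho of -0.43 with the mast cell score over the 11 libraries, of -0.24 without WT4 and of 0.54 within the 6 *Atf6*-/- libraries. *Pmel* had a rho of 0.55 with that score, of 0.62 without WT4 and of 0.94 within the *Atf6*-/- libraries, and the part of these cells in the *Pmel* values was not tested. Of 7 blood progenitor genes, 0 passed the unadjusted p. *Mitf* is needed in osteoclasts, whose markers *Acp5* and *Mmp9* ranged from 1.86 to 62.4 and from 2.07 to 49.3 FPKM. All 6 osteoclast genes tested of 7 had a negative log2 fold change in both fits, with a median of -0.63 with all libraries and -0.49 without WT4, and 1 fell at the unadjusted p with all libraries (*Mmp9*, -1.57) and 0 without WT4. *Mitf* had a rho of -0.65 with the osteoclast score (-0.71 within the *Atf6*-/- libraries) and of 0.55 with the Schwann cell score, which was 0.84 without WT4 and 0.83 within the *Atf6*-/- libraries. Of the erythroid, neutrophil and B cell genes, here combined in a bone marrow score, 5 of 6, 3 of 7 and 2 of 6 fell at the unadjusted p (5, 0 and 1 without WT4). No gene of these lists, or of the mast cell and osteoclast lists, passed the adjusted p in either fit. The bone marrow score had a rho between -0.11 and 0.03 with *Dct*, *Tyr*, *Mlana* and *Slc45a2*, and of -0.44 with *Kit* (-0.25 without WT4, and 0.029 within the *Atf6*-/- libraries). Its Pearson r with *Kit* was -0.79, and -0.77 without WT4 and -0.13 within the *Atf6*-/- libraries. With it as a covariate the log2 fold change of *Kit* was 0.034 (-0.17 to 0.24, limma adjusted p = 0.979), and 0.0097 without WT4. The part of these cells in the *Kit* and *Mitf* levels was not tested. Of 6 markers of skin keratinocytes, neighbours of melanocytes in skin, 3 were tested and 0 passed the unadjusted p in either fit. *Krt5* was at 0.36 FPKM or less, *Krt10* at 0.57 to 1.06 FPKM, and *Krt14* at 0.93 FPKM or less with a rho of 0.67 with *Dct*. *Dsg1a* was at 0.01 FPKM or less.

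Among 13604 other genes averaging 1 FPKM or more, the 10 ranked most like the mean log2 level of *Tyr*, *Tyrp1*, *Dct*, *Pmel*, *Mlana* and *Slc45a2* were *Efna5*, *Gsta4*, *Zc3h14*, *Sh3bgrl*, *Gas2*, *Cited4*, *Mrap2*, *Gramd2*, *Bnip3l* and *Rufy4*, with a Spearman's rho of 0.90 to 0.95 over 11 libraries. *Efna5* encodes an ephrin ligand and *Gsta4* a detoxifying enzyme. The Pearson r of the 10 ran from 0.64 (*Zc3h14*) to 0.95 (*Gsta4*). That mean mixes different patterns, since *Tyrp1* and *Pmel* had a rho of -0.49 to -0.13 with each of the other genes in it. Of the 10, *Rufy4* was among the 10 nearest to *Mlana*, and the rest were among the 10 nearest to none of the single genes. The 10 are the top of 13604 genes ranked over 11 libraries, a description with no test. For single genes, named after their values were seen, *Gpnmb* was nearest to *Tyr* (rho = 0.99) and *Met* was nearest to *Mlana* (0.99). *Met* and *Hpse*, which encodes heparanase, were nearest to *Slc45a2* (0.98 each). *Smad5* and *Esrrb* were nearest to *Dct* (0.95 each). The nearest to *Tyrp1* were *1110017D15Rik* (0.93) and *Oscp1* (0.92), and *Pmel* had *Tspan13* (0.92) and *Tctex1d1* (0.88) among its nearest.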

How the data were processed

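RNA-Seq was performed on 5 *Atf6*+/+ and 6 *Atf6*-/- whole cochleae, 1 library per cochlea. The deposited values are FPKM with 2 decimals, which the authors made by aligning stranded paired-end reads to GRCm39 with HISAT2 2.0.4 and estimating expression with RSEM. Their own DESeq2 1.4.5 comparison was not used. The RSEM version is 1.2.12 per the submitters' processing notes, and the methods give another. FPKM summed to 462005 to 537926 per library. No counts were used, so counting error is unknown.

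A pseudocount of 0.1 was added to FPKM before log2 transformation, and genes averaging 0.1 FPKM or more were kept. In R 4.3.3, limma 3.58.1 (mean-variance trend, genotype as the only term, two-sided) was run on 16169 genes, or 16139 without WT4, with Benjamini-Hochberg adjustment. Single genes were compared by exact two-sided permutation over 462 or 210 divisions of the libraries. No source says whether any 2 cochleae came from 1 mouse, so p-values measure the spread between these libraries. Scores are mean log2 values of marker lists. The 8 genes and the lists were chosen with earlier results of these data known. Named genes are all 8, genes of the lists where reported, *Atf6*, and the 10 others whose ranks across libraries were most like the mean of *Tyr*, *Tyrp1*, *Dct*, *Pmel*, *Mlana* and *Slc45a2*. The rule gives values for up to 4 genes of a list, and further ones, the genes nearest to a single gene, those overlapping *Pmel* or *Dct*, and the hair cell genes were chosen after values were seen. The fit was tested on simulated data.

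Alternatives changed the pseudocount (1, 0.01), the filter (none, or 1 FPKM), the scaling (TPM, median of ratios), the variance estimate (robust) or the model (replicate block, or a marginal cell or bone marrow score as covariate), or left out each library. Remaining steps used Python 3.11.15, pandas 2.3.3, numpy 2.4.6, matplotlib 3.10.9 and scipy 1.17.1.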

Additional observations from a re-analysis of the deposited data

Results flagged for a closer look

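Dixon's test, which flags about 1 in 20 groups by chance where groups are independent, was applied to the 2 groups for the 8 genes and the marginal cell score, 18 groups in all, and every result it picked out was WT4. The values of WT4 were 0.10 FPKM for *Tyr*, 0.84 FPKM for *Dct*, 0.59 FPKM for *Mlana*, 0.06 FPKM for *Slc45a2*, 4.78 FPKM for *Mitf* and 1.67 for the marginal cell score, each below the other 4 *Atf6*+/+ libraries, where *Mitf* was at 6.78 to 7.70 FPKM. WT4 had been singled out by earlier results of these data, and these values vary together, so they are 1 observation on 1 library and no independent evidence. *Tyrp1*, *Pmel* and *Kit* were not picked out in either group. The cause was not tested.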

How the results depend on the processing

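No gene of the 8 passed an adjusted p under 0.05 under any alternative, with all libraries or without WT4. The lowest adjusted p over all alternatives was 0.390, for *Kit*. The number at the unadjusted p was 0, and 1 with TPM or median-of-ratios scaling (*Kit*, 0.25 and 0.20), 1 with the marginal cell score as a covariate (*Tyr*, -0.60), 0 to 1 on leaving out 1 library, and without WT4 1 under the replicate block (*Dct*, -0.90, limma adjusted p = 0.999). *Pmel* passed it without WT3, WT5, KO3 or KO4, and *Kit* without WT1 or WT2. The log2 fold change of *Dct*, 0.18 with all libraries, was -0.089 under the replicate block, -0.28 and -0.25 with the marginal cell and bone marrow scores as covariates, and -0.26 without the 3 libraries lowest in the marginal cell score. That of *Mlana*, -0.013, was 0.0090 with a pseudocount of 0.01 and 0.055 with TPM, and that of *Slc45a2*, -0.027, was 0.14 and 0.093. Without WT4 that of *Mitf*, -0.0092, was 0.038 with TPM, 0.0038 with median-of-ratios scaling, 0.00093 under the replicate block, and 0.022 and 0.0015 with the marginal cell and bone marrow scores. On leaving out each library in turn the log2 fold change ran from -1.05 to 0.56 for *Dct*, -1.0 to 0.052 for *Tyr*, -0.87 to 0.43 for *Mlana*, -0.99 to 0.43 for *Slc45a2*, -0.69 to -0.42 for *Pmel*, -0.61 (without WT5) to -0.22 (without KO6) for *Tyrp1*, -0.0092 to 0.16 for *Mitf* and 0.11 to 0.25 for *Kit*. With a pseudocount of 1 FPKM that of *Tyrp1*, -0.42, was -0.15. *Tyrp1* was not tested with a minimum mean of 1 FPKM, which it does not reach. The causes were not tested, apart from WT4, whose removal gives the lowest of these values for *Dct*, *Tyr*, *Mlana*, *Slc45a2* and *Mitf*.

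Same-numbered libraries deviated together in no regular way (correlations of -0.21 to 0.12, and 1 of 5 *Atf6*+/+ libraries was nearest to its own number), so the numbers do not pair the libraries. KO6 has no partner and drops out of the replicate block. Without WT4 the same holds for KO4, the *Atf6*-/- library lowest for *Dct* (8.35 FPKM). The value of -0.90 for *Dct* under that block thus leaves out KO4 and KO6. The number of all genes with an adjusted p under 0.05 was 11, and 4 under the replicate block, 6 with the bone marrow score, 7 without the 3 libraries and, without WT4, 0 under the replicate block (758 at the study's rule). TPM raised the share of higher calls among all genes from 45.5% to 75.2% of those at the study's rule.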

Other observations

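A list of 8 hair cell genes, written after the genes nearest to *Pmel* and *Tyrp1* had been seen, was set beside the 8 pigment cell genes, because *Cdh23*, which encodes a cadherin of the hair bundle, and the muscle and hair cell gene *Smpx* were among the 10 genes nearest to *Pmel* (rho = 0.87 and 0.85). The mean log2 level of that list had a Spearman's rho of 0.08 with *Tyrp1* and 0.28 with *Pmel* over 11 libraries, and of 0.14 to 0.25 with *Tyr*, *Dct*, *Mlana* and *Slc45a2*. Its rho with *Kit* was 0.74, and 0.66 without WT4. These are descriptions with no test. WT3 and WT4, the libraries lowest for *Kit*, were also lowest for that mean (1.71 each, against 2.23 to 3.27 elsewhere). They were not lowest for each of its genes, since *Gfi1* was lowest in KO5 (1.75 FPKM, against 3.32 and 3.94 FPKM in WT3 and WT4). WT3 and WT4 were lowest for the basal cell and ligament fibrocyte scores too, so their low values were not particular to hair cell genes. Over the 11 libraries the Pearson r of *Kit* was 0.83 with the basal cell score and 0.78 with the ligament fibrocyte score. With the hair cell mean it was 0.84. Within the *Atf6*-/- libraries the rho of *Kit* was -0.086, -0.14 and 0.6 with these in turn.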
